A study of Mus musculus with 12 samples.

Results

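The 37 mouse genes described here carry out the uptake, storage and oxidation of fatty acids in muscle. They were chosen as a fixed list of names, by function, with earlier results of these data known. All were found by NCBI Gene ID among the 27179 genes counted. The list holds 5 genes of uptake and transport, 5 acyl-CoA synthetases, 4 genes of the lipid droplet and lipolysis, 5 genes of mitochondrial entry and its control by malonyl-CoA, 4 acyl-CoA dehydrogenases, 6 genes of the later steps of the oxidation spiral, 3 isomerases and reductases for unsaturated chains, 3 genes of electron transfer, and a thioesterase with an uncoupling protein. All 37 passed the expression filter, as did 15502 genes in all.

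RNA came from the tibialis anterior (TA) muscles of 6 wild-type male C57BL/6N mice, which arrived at 6 to 8 weeks of age and entered experiments within 2 weeks. In each mouse, 1 TA received 10 μg of empty plasmid (Control) and the opposite TA received 10 μg of plasmid for the full-length human long noncoding RNA *FRAIL1*, driven by the CMV promoter. Both muscles were injected and electroporated, and both were taken on day 7, giving 6 Control and 6 *FRAIL1* muscles. Whole muscle was sequenced as poly(A) RNA, so a level is a sum over transfected fibers, untransfected fibers and other cells, and fewer cells of a type cannot be told apart from less RNA per cell. The human *FRAIL1* transcript is not a row of the mouse table, so its own level was not measured here. Both groups carry the muscle numbers 1 to 6, and muscles of 1 number are treated below as a pair from 1 mouse, which the sample labels do not state outright.

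Long-chain fatty acids enter a fiber through transporters, are bound by carrier proteins and are joined to coenzyme A, after which they are stored in droplets or carried into mitochondria by the carnitine shuttle. Malonyl-CoA blocks that shuttle, so the enzymes that make and remove it set how much fat is burned. Inside the mitochondrion, each turn of β-oxidation removes a short piece of the chain through dehydrogenation, hydration, a further oxidation and thiolysis, and the electrons pass to the respiratory chain. Oxidative fibers are known for high levels of these genes, and the mouse TA is mostly made of fast glycolytic fibers.

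The 6 Control libraries held 45018389 to 59309210 counts, and the 6 *FRAIL1* libraries held 44848322 to 60527385. Muscle markers were high in every library, with 5 fiber genes together at 71904 to 123507 CPM (counts scaled to library size with edgeR's TMM factors). *FRAIL1* muscle 5 stood apart from the other libraries, at 59.5 on the first principal component against -25.9 to 25.8 for the rest. Differences below are log2 fold changes of *FRAIL1* over Control muscles with their standard errors (SE), and adjusted p-values are those of the quasi-likelihood test in edgeR, corrected by Benjamini-Hochberg over all genes tested.

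No gene of the list passed an adjusted p-value of 0.05 in the comparison without a term for the mouse: 0 of 37 were higher, against 4.43% of all genes tested, and 0 of 37 were lower, against 1.85% (6.28% in either direction). At an unadjusted p-value under 0.05 the edgeR test held 1 gene that was higher, against 15.2% of all genes, and 5 that were lower, against 12.5%. These 6 genes are 16.2% of the list, a smaller share than the 27.7% of all genes. DESeq2's Wald test and limma voom, also without a block, each passed 2 of the 37, *Acacb* and *Fabp4*, both lower, where 6.39% and 5.43% of all genes were lower in these tests. When the edgeR model held the mouse as a block, 5 were lower (*Acacb*, *Fabp4*, *Cd36*, *Mlycd* and *Echs1*) and 1 was higher (*Acsl6*). The 6 again make 16.2% of the list, against 14.1% of all genes (6.62% lower and 7.48% higher). With the block DESeq2 held 9 genes that were lower (9.94% of all genes were), and edgeR without both muscles numbered 5 held 8 that were lower (7.81%) and 1 that was higher (7.04%). Without those muscles and without a block, edgeR held 1 that was lower (2.52%). For calls in either direction, edgeR on all 12 muscles called the list at about the background rate with the block, and below it without. By direction, the 5 of 37 that were lower with the block are a larger share than the 6.62% of all genes. The 1 of 37 that was higher is a smaller share than the 7.48%. With the block, the 9 of 37 lower in DESeq2 also exceed the share of all genes (9.94%). So do the 8 of 37 lower in edgeR without both muscles numbered 5 (7.81%). The differences between these shares were not tested.

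Most genes of the list had small negative values. The log2 fold change was below 0 for 27 of 37, or 73.0%, against 48.4% of all genes, and the median was -0.11 (range -0.55 to 0.22) against 0.0096 over all genes tested. This median depended on single muscles, at -0.072 without *FRAIL1* muscle 5, -0.054 without Control muscle 6 and -0.19 without *FRAIL1* muscle 6. Without *FRAIL1* muscle 5 the fold change of 19 of the 37 genes moved by more than 1.5 times, to nearer 0 for 18 of them, while *Acsl5* turned from 0.015 to -0.012, and these values are given below beside the genes. Within pairs the median difference was between -0.41, in pair 5, and 0.0070, in pair 4, with a mean of -0.13 ± 0.148 (SD, n = 6 pairs). A gene was lower in all 6 pairs for 11 of the 37, a larger share than the 11.7% of all genes (1818 of 15502). It was higher in all 6 pairs for *Acsl6* alone, and that share over all genes was not counted. The *FRAIL1* values lay entirely below the Control values for 1 gene of the list, *Acacb*, against 1.77% of all genes, and entirely above for 0 of them, against 3.12% (4.88% in either direction). The plot of fold changes by step shows values on both sides of 0 in 6 of the 9 steps.

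**Figure D1:**
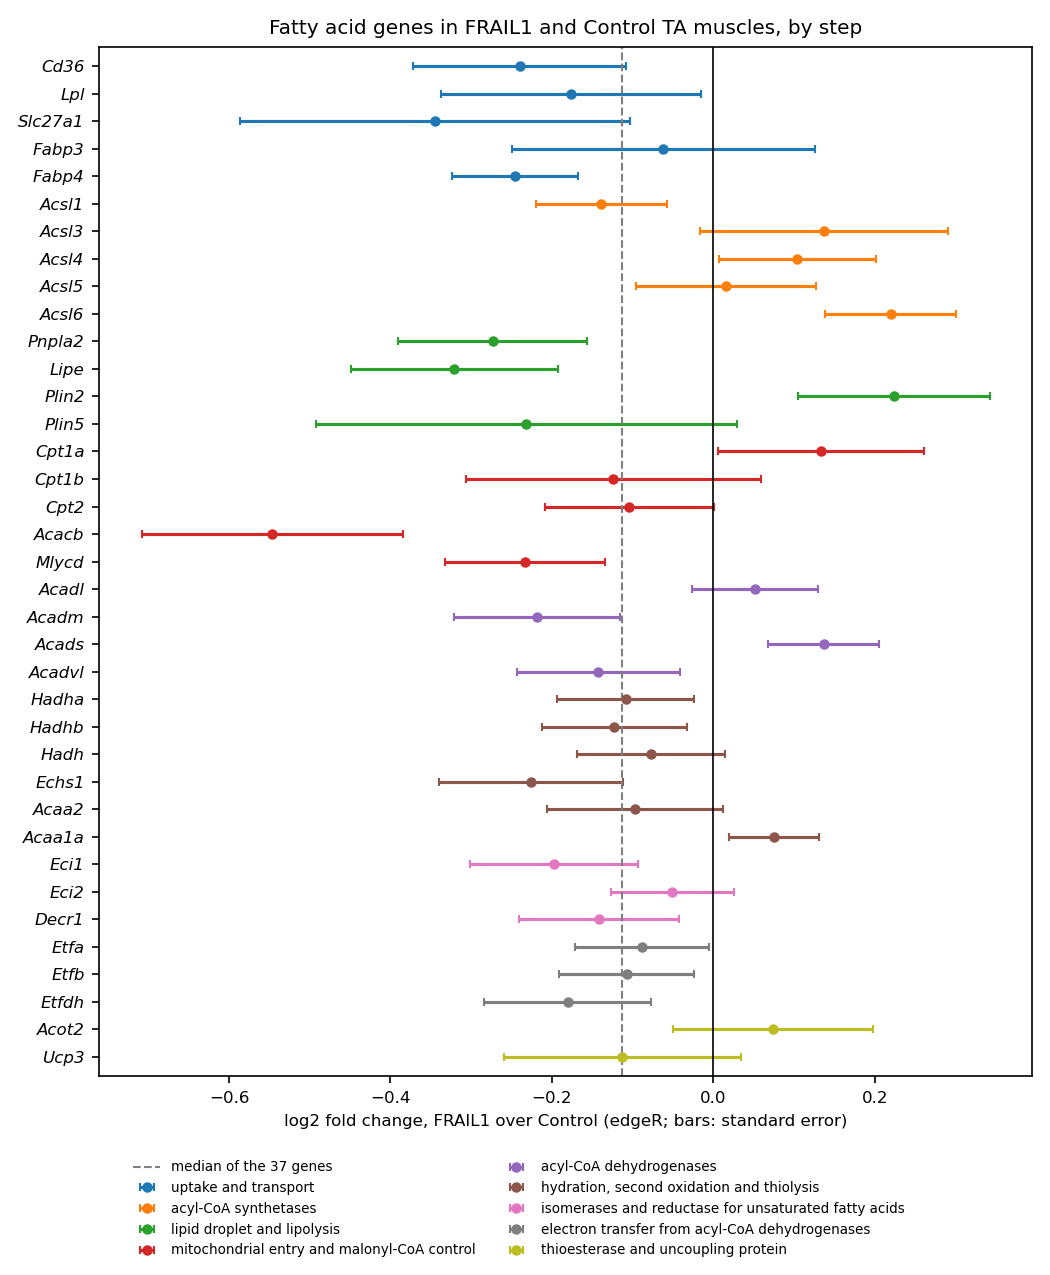
Log2 fold change of *FRAIL1* over Control muscles (x axis) for the 37 genes (y axis), coloured by step, with bars for the standard error from edgeR and a dashed line at the median of the 37 genes. *Acacb* lies farthest from 0 at -0.55, and 4 of the 5 acyl-CoA synthetases lie above 0.

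The largest difference of the list was in the gene that makes malonyl-CoA at the mitochondrion. *Acacb* (acetyl-CoA carboxylase 2, Gene ID 100705, chromosome 5 of GRCm38, 114146321 to 114250761) had lowest, median and highest levels of 272, 301 and 351 CPM among the Control muscles. Among the *FRAIL1* muscles these were 112, 219 and 268 CPM. Every *FRAIL1* muscle lay below every Control muscle, and muscle 5 was the lowest. The log2 fold change was -0.55 (SE 0.162) with an adjusted p-value of 0.0587 by edgeR, and 0.0300 with the mouse as a block. With 1 muscle left out, edgeR's adjusted p-value without the block was above 0.05 in 9 of 12 fits (up to 0.114, without Control muscle 1). It was under 0.05 without *FRAIL1* muscle 2 (0.0314), muscle 3 (0.0407) or muscle 5 (0.0128). Without *FRAIL1* muscle 5 the log2 fold change was -0.42.

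*Mlycd* encodes malonyl-CoA decarboxylase, the enzyme that removes malonyl-CoA (Gene ID 56690, chromosome 8 of GRCm38, 119394852 to 119421838). Its lowest, median and highest levels were 53.3, 67.5 and 82.8 CPM in Control muscles and 46.5, 56.3 and 67.6 CPM in *FRAIL1* muscles. The groups overlapped, but the *FRAIL1* muscle was the lower of the pair in 5 of 6. Its log2 fold change of -0.23 (SE 0.0995) had an adjusted p-value of 0.145 by edgeR and 0.0443 with the block. The maker and the remover of malonyl-CoA thus both had lower means in *FRAIL1* muscles.

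The carnitine shuttle itself showed small differences. *Cpt2*, the carnitine palmitoyltransferase of the inner membrane, had a log2 fold change of -0.10 (SE 0.105, adjusted p = 0.547 by edgeR) and of -0.039 without *FRAIL1* muscle 5. *Cpt1a*, the form of the outer-membrane enzyme known from liver, measured 11.9 to 18.8 CPM in Control and 11.7 to 19.1 CPM in *FRAIL1* muscles (log2 fold change 0.13, SE 0.128). *Cpt1b*, the muscle form, was listed at only 1.38 to 2.91 CPM in Control and 1.70 to 2.18 CPM in *FRAIL1* muscles. In the GENCODE annotation 81.4% of its exon bases lie within a readthrough gene on the same strand, *Gm44502*, which itself is listed at 0, and reads that overlap both genes can be left uncounted. The level of *Cpt1b* therefore cannot be compared with that of *Cpt1a*, and its log2 fold change of -0.12 (SE 0.183) rests on the remaining reads.

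**Figure D2:**
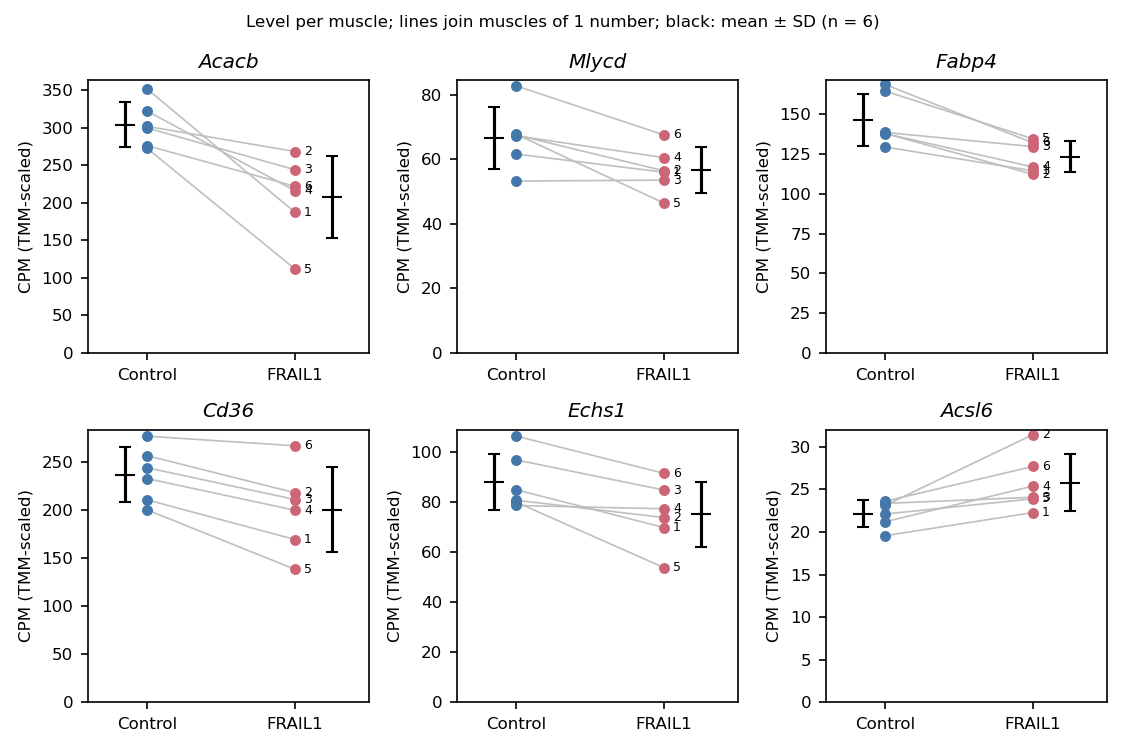
Level (CPM, y axis from 0) in each Control and *FRAIL1* muscle for the 6 genes that passed an adjusted p-value of 0.05 with the mouse as a block, with lines joining muscles of 1 number and the mean ± SD (n = 6) in black. For *Acacb* the *FRAIL1* values (112 to 268 CPM) all lie below the Control values (272 to 351 CPM), while the groups overlap for the other 5 genes.

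All 5 genes of uptake and transport had negative values in the edgeR fit, with a median log2 fold change of -0.24, and 3 of them were lower in all 6 pairs. *Fabp4*, a fatty acid-binding protein of capillary endothelium and fat cells (Gene ID 11770, chromosome 3 of GRCm38, 10204342 to 10208616), had lowest, median and highest levels of 129, 138 and 169 CPM in Control and 112, 123 and 134 CPM in *FRAIL1* muscles. The ranges overlapped, with 3 of the 6 *FRAIL1* muscles below every Control muscle and 5 of the 6 Control muscles above every *FRAIL1* muscle. The log2 fold change was -0.25 (SE 0.0777), with an adjusted p-value of 0.0660 by edgeR and 0.0179 with the block. With 1 muscle left out, edgeR's adjusted p-value with no block was above 0.05 in 10 of 12 fits (up to 0.124, without *FRAIL1* muscle 1). It was 0.0498 without *FRAIL1* muscle 3 and 0.0413 without *FRAIL1* muscle 5.

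*Cd36*, the fatty acid translocase (Gene ID 12491, chromosome 5 of GRCm38, 17781690 to 17888959), spanned 199.9 to 277 CPM (median 238) in the Control group and 138 to 267 CPM (median 205) in the *FRAIL1* group. The ranges overlapped, but the *FRAIL1* muscle was lower in 6 of 6 pairs. The log2 fold change of -0.24 (SE 0.132) had an adjusted p-value of 0.251 by edgeR and 0.0267 with the mouse as a block. Its fold change was -0.15 when *FRAIL1* muscle 5 was left out (adjusted p = 0.444 by edgeR, no block). *Slc27a1*, the transporter FATP1, had the lowest value of the step (log2 fold change -0.34, SE 0.242, adjusted p = 0.379 by edgeR). Its range was 77.5 to 126 CPM in Control and 29.7 to 108 CPM in *FRAIL1* muscles, with muscle 5 alone below 70 CPM, and without that muscle the log2 fold change was -0.18. *Lpl*, the lipase that frees fatty acids from lipoproteins at the capillary wall, had a value of -0.18 (SE 0.161), and of -0.073 without *FRAIL1* muscle 5 (adjusted p = 0.803 by edgeR). *Fabp3*, the carrier of the fiber interior, was the nearest to 0 at -0.062 (SE 0.188) and was at -0.013 without *FRAIL1* muscle 5 and 0.045 in limma voom. For *Fabp3*, 48.8% of the transcript has a near-identical pseudogene copy, so reads in that stretch may not have been counted.

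Markers of the capillary wall also had lower values. All 9 endothelial markers had values below 0 (median -0.22), and *Tek* (log2 fold change -0.41, adjusted p = 0.0186 by edgeR) and *Vwf* (-0.25, adjusted p = 0.0481) passed the threshold. With the block 4 were lower, *Kdr* (adjusted p = 0.0264 by edgeR) and *Gpihbp1* (0.0146) among them. Their summed level was 480 to 558 CPM in Control and 387 to 494 CPM in *FRAIL1* muscles, lower in all 6 pairs, and none of the 9 was at 0. The 8 adipocyte markers summed to 11.3 to 45.6 CPM in Control muscles, where muscles 5 and 6 held the top values, and to 12.4 to 15.9 CPM in *FRAIL1* muscles, and 0 of the 6 tested passed (2 at an unadjusted p-value under 0.05). *Fabp4* was also highest in Control muscles 5 and 6, at 164 and 169 CPM. The part of endothelium and fat cells in the values of *Fabp4*, *Cd36* and *Lpl* was not tested.

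Of the 6 genes that passed the threshold with the block, the promoters of *Cd36*, *Echs1* and *Acsl6* are shown because they hold AGGTCA. Lipid-sensing nuclear receptors bind repeats or extended forms of this half-site, and a single half-site is not such a form. Each promoter window is the 250 bases before a RefSeq start on GRCm38.p6, read 5′ to 3′ along the gene, with capitals for AGGTCA on either strand. *Acacb* is printed for its size of difference. The window of *Acacb* holds no match. The windows of *Cd36* and *Acacb* both lie inside the annotated span of the gene, before an internal RefSeq start. *Mlycd*, whose window holds no match either, and *Fabp4*, without a window, passed as well and are not shown.
Cd36, chr5:17835897-17836146, minus strand: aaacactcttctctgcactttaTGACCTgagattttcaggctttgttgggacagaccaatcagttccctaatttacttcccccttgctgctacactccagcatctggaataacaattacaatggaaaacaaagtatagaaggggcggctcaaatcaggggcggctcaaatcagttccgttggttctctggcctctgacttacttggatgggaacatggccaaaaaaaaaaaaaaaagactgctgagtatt
Echs1, chr7:140116422-140116671, minus strand: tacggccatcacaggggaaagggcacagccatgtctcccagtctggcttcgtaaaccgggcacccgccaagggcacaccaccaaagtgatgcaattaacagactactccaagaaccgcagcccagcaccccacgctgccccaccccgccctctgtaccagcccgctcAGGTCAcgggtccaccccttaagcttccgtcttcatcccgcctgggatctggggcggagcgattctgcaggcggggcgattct
Acsl6, chr11:54303574-54303823, plus strand: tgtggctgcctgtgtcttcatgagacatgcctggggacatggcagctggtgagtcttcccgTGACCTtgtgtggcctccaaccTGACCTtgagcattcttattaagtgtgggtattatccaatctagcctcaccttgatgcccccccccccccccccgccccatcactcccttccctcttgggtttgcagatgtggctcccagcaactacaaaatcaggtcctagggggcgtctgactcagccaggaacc
Acacb, chr5:114165268-114165517, plus strand: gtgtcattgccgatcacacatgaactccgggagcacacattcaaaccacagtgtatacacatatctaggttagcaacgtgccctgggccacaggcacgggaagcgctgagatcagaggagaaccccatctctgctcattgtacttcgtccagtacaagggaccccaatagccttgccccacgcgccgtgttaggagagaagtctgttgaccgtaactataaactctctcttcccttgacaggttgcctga

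Of the 37 genes, 32 had such a window, and 9 of these (28.1%) held AGGTCA, namely *Acadm*, *Acadvl*, *Acsl6*, *Cd36*, *Cpt1a*, *Echs1*, *Plin2*, *Plin5* and *Ucp3*. The share over all 27025 genes with a window was 15.8%. The longer TCAAGGTCA, the element of estrogen-related receptors, which contains the half-site, was present for *Acsl6* alone, against 0.422% of all genes. The spaced repeat AGGTCANAGGTCA was in none of the 32, against 0.0407% of all genes, and the E-box CACGTG was in *Lipe* and *Slc27a1*, or 6.25% against 6.86%. Of the 9 genes with the half-site, *Acsl6*, *Cpt1a* and *Plin2* had values above 0. All the others, *Acadm*, *Acadvl*, *Cd36*, *Echs1*, *Plin5* and *Ucp3*, had values below 0. Binding of a receptor was not measured here.

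The acyl-CoA synthetases, which activate fatty acids with coenzyme A, were the step with values mostly above 0. *Acsl6* (Gene ID 216739, chromosome 11 of GRCm38, 54303805 to 54364756) had lowest, median and highest levels of 19.6, 22.6 and 23.6 CPM in Control and 22.3, 24.7 and 31.4 CPM in *FRAIL1* muscles. In all 6 pairs the *FRAIL1* muscle was the higher, and 5 of the 6 *FRAIL1* values lay above every Control value. The log2 fold change was 0.22 (SE 0.0807), with an adjusted p-value of 0.0991 by edgeR and 0.0405 with the block. *Acsl1*, the main form of muscle and fat, had 316 to 366 CPM in Control and 238 to 349.6 CPM in *FRAIL1* muscles, and each *FRAIL1* muscle lay below its pair (log2 fold change -0.14, SE 0.0816, adjusted p = 0.282 by edgeR, and -0.080 without *FRAIL1* muscle 5). *Acsl3* (0.14), *Acsl4* (0.10) and *Acsl5* (0.015) had higher and lower muscles in both groups.

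Ratios of related genes within a muscle do not depend on how libraries are scaled, so 21 pairs from 7 families were compared by a two-sided exact permutation test over the 12 muscles, with adjustment over the 21. The smallest p-value that the 924 splits can give is 0.00216. The tests were added after the data were seen, and the 924 splits do not keep the muscles of 1 mouse together. Permuted within the 6 pairs, which allows 64 splits and no p-value under 0.0312, 5 of the ratios below were at that smallest p-value and 0 of the 21 passed after adjustment (adjusted 0.131 for the 5). The log2 ratio of *Acsl1* to *Acsl6* was 3.80 to 4.05 in Control muscles (mean 3.91 ± 0.0896, SD, n = 6) and 3.32 to 3.71 in *FRAIL1* muscles (mean 3.55 ± 0.181, SD, n = 6). The groups did not overlap, the ratio was lower in 6 of 6 pairs, and the difference of -0.36 had an exact p of 0.00216 (adjusted 0.0152 over the 21 ratios). Neither gene passed the threshold on its own without the block.

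The acyl-CoA dehydrogenases start each turn of β-oxidation and divide the chain lengths between them. Here they parted by gene: medium-chain *Acadm* had a log2 fold change of -0.22 (SE 0.103) and very-long-chain *Acadvl* of -0.14 (SE 0.101; -0.072 without *FRAIL1* muscle 5), while long-chain *Acadl* had 0.051 (SE 0.0780) and short-chain *Acads* 0.14 (SE 0.0688). None of the 4 passed an adjusted p-value of 0.05 by edgeR with or without the block. *Acadm* ranged from 278 to 364 CPM in Control and from 199 to 324 CPM in *FRAIL1* muscles, with the lower value in the *FRAIL1* muscle of all 6 pairs. *Acads* ranged from 62.8 to 80.6 CPM in Control and from 73.1 to 88.3 CPM in *FRAIL1* muscles, and it was higher in 5 of 6 pairs.

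For each of the 4 genes the levels of the groups overlapped, but for 2 of their ratios the groups were apart. The log2 ratio of *Acadl* to *Acadm* was -0.37 to -0.28 in Control muscles (mean -0.31 ± 0.0341, SD) and -0.19 to 0.29 in *FRAIL1* muscles (mean -0.029 ± 0.167, SD). That of *Acadl* to *Acadvl* was -1.02 to -0.93 in Control muscles (mean -0.96 ± 0.0327, SD) and -0.92 to -0.43 in *FRAIL1* muscles (mean -0.76 ± 0.170, SD). For both ratios every *FRAIL1* muscle lay above every Control muscle and above its own pair, with *FRAIL1* muscle 5 the highest. The differences were 0.28 and 0.20, each with an exact permutation p of 0.00216 (adjusted 0.0152).

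In 3 further ratios the groups overlapped but differed in the exact permutation test over the 12 muscles. *Acadm* relative to *Acads* was lower by a log2 difference of -0.37 (adjusted p = 0.0227, exact permutation test, lower in 6 of 6 pairs). *Acads* relative to *Acadvl* was higher by 0.29 (adjusted p = 0.0273, exact permutation test, higher in 6 of 6 pairs). *Acadm* relative to *Acadvl* differed least, by -0.080 (adjusted p = 0.0379, exact permutation test, lower in 5 of 6 pairs). Permuted within pairs, none of these 3 ratios passed, with an adjusted p of 0.219 for *Acadm* to *Acadvl* and 0.131 for each of the others. The 5 dehydrogenase ratios share their 4 genes and are not independent of each other. Opposite-strand exons of *Dvl2* overlap 42.9% of the exon bases of *Acadvl*, and the strand setting of the counting is not given in the sources used here. The 3 ratios with overlapping groups lost the threshold without Control muscle 1, 2, 3, 4 or 6 (adjusted p 0.0545 to 0.0833, exact permutation tests). *Acads* to *Acadvl* also lost it without *FRAIL1* muscle 5, where its difference was 0.18 (0.0606, exact permutation test). *Acadm* to *Acadvl* also lost it without *FRAIL1* muscle 1, 3, 4 or 5 (0.0530 to 0.0606, exact permutation tests). The 3 ratios whose groups did not overlap kept the threshold without any 1 muscle. Leaving out 1 muscle cannot make such groups overlap, so this was fixed in advance and adds no support.

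**Figure D3:**
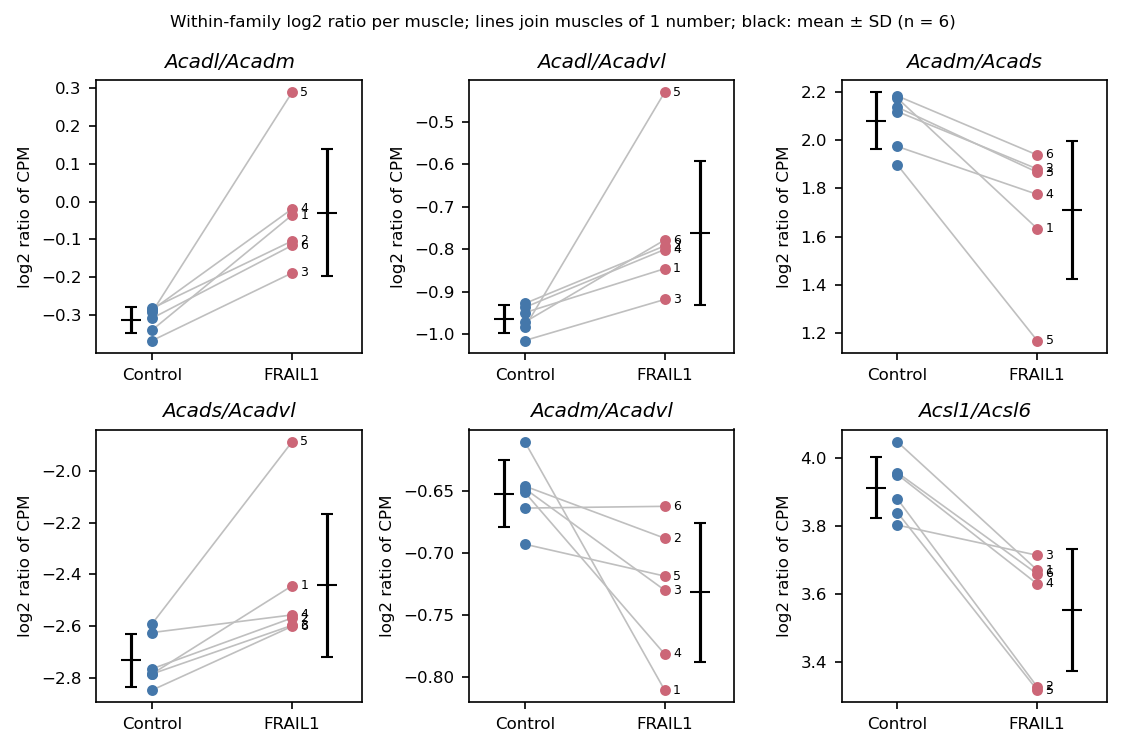
Log2 ratio of the CPM of 2 related genes (y axis) in each Control and *FRAIL1* muscle for the 6 ratios past an adjusted p of 0.05 in the exact permutation test over the 12 muscles, with lines joining muscles of 1 number and the mean ± SD (n = 6) in black. The groups do not overlap for *Acadl*/*Acadm*, *Acadl*/*Acadvl* and *Acsl1*/*Acsl6*, and *FRAIL1* muscle 5 lies at the far end in 5 of the 6 panels.

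The other 15 ratios had adjusted p-values of 0.260 to 0.905 in the exact permutation test. Among them *Hadha* to *Hadhb*, the subunits of 1 trifunctional protein, differed by 0.021, *Pnpla2* to *Lipe* by 0.015, *Fabp3* to *Fabp4* by 0.21, *Cpt1a* to *Cpt1b* by 0.21 and *Plin2* to *Plin5* by 0.50, the last with wide ranges in both groups.

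At the lipid droplet, both lipases had lower means. *Pnpla2*, the first triglyceride lipase (ATGL), ranged from 249 to 305 CPM in Control and from 149.9 to 272 CPM in *FRAIL1* muscles (log2 fold change -0.27, SE 0.117, adjusted p = 0.146 by edgeR), and -0.18 without *FRAIL1* muscle 5. *Lipe*, hormone-sensitive lipase, ranged from 13.2 to 21.9 CPM in Control and from 11.3 to 17.7 CPM in *FRAIL1* muscles, and the *FRAIL1* muscle was the lower of all 6 pairs (log2 fold change -0.32, SE 0.128, adjusted p = 0.124 by edgeR, 0.0764 with the block). Opposite-strand exons overlap 15.6% of *Lipe*. The perilipins, which coat droplets, had values of opposite sign. *Plin2* was at 51.4 to 57.8 CPM in every Control muscle and at 51.5 to 89.1 CPM in *FRAIL1* muscles, with muscles 1 and 4 alone above 58 CPM (0.22, SE 0.119). *Plin5*, the perilipin of oxidative tissue, ranged from 10.4 to 19.4 CPM in Control and from 4.64 to 18.3 CPM in *FRAIL1* muscles (-0.23, SE 0.261), and its value was -0.073 without *FRAIL1* muscle 5.

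The later steps of the spiral had mostly small negative values. *Echs1*, the short-chain enoyl-CoA hydratase (Gene ID 93747, chromosome 7 of GRCm38, 140105710 to 140116421), had lowest, median and highest levels of 78.7, 82.9 and 106 CPM in Control and 53.8, 75.6 and 91.5 CPM in *FRAIL1* muscles. The *FRAIL1* muscle was lower in all 6 pairs, and 4 of the 6 lay below every Control value. The log2 fold change of -0.23 (SE 0.114) had an adjusted p-value of 0.211 by edgeR and 0.0414 with the block, and the value was -0.15 without *FRAIL1* muscle 5 (adjusted p = 0.361 by edgeR, no block). *Hadha* and *Hadhb*, the subunits of the trifunctional protein of long chains, had -0.11 (SE 0.0849) and -0.12 (SE 0.0897), and 69.7% of the *Hadhb* transcript has a near-identical pseudogene copy. *Hadh*, the short-chain dehydrogenase, had -0.077, the thiolase *Acaa2* had -0.097, and *Acaa1a*, the peroxisomal thiolase, had 0.075 (SE 0.0554), with 81.0% of its transcript at least 95% identical to *Acaa1b*. Without *FRAIL1* muscle 5 *Hadh* was at -0.042 and *Acaa2* at -0.054.

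The isomerases *Eci1* (-0.20, SE 0.104) and *Eci2* (-0.051, SE 0.0766) and the reductase *Decr1* (-0.14, SE 0.0993), which prepare unsaturated chains, all had log2 fold changes below 0. So did the electron acceptors *Etfa* (-0.089) and *Etfb* (-0.11) and their partner *Etfdh* (-0.18, SE 0.104), which passes the electrons to ubiquinone. *Etfdh* and *Decr1* were lower in 6 of 6 pairs, and *Etfdh* had an adjusted p-value of 0.271 by edgeR and 0.0549 with the block. Without *FRAIL1* muscle 5 the values were -0.13 for *Eci1*, -0.0015 for *Eci2*, -0.081 for *Decr1*, -0.049 for *Etfa* and -0.063 for *Etfb*. *Gm45233* overlaps 58.2% of the exon bases of *Etfb*. The thioesterase *Acot2* (0.074, SE 0.124) and *Ucp3*, the uncoupling protein of muscle (-0.11, SE 0.147), had ranges that coincided, with *Ucp3* at 90.4 to 165 CPM in Control and 89.4 to 157 CPM in *FRAIL1* muscles and a value of -0.048 without *FRAIL1* muscle 5. For *Acot2*, 58.0% of the transcript is at least 95% identical to *Acot1*, so reads in that stretch may not have been counted.

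Levels also varied between muscles of 1 group. Control muscle 6 was the highest Control muscle for 28 of the 37 genes, against 19.9% of all genes, and *FRAIL1* muscle 6 was the highest *FRAIL1* muscle for 25, against 12.9%. The median log2 deviation of the 37 genes from their Control means was 0.26 in Control muscle 6 and 0.12 in *FRAIL1* muscle 6, and between -0.33 and 0.046 in the other 10. The muscles of number 6 also stood out in *Myh2*, the myosin of oxidative type 2A fibers, at 2133 and 1448 CPM against 261 to 553 CPM in the other 10. At the other end, *FRAIL1* muscle 5 was the lowest of all 12 for 24 of the 37 genes, against 23.3% of all genes. Its deviation of -0.33 was accompanied by the lowest summed fiber markers (71904 CPM) and the highest summed fibroblast markers (5065 CPM). In that fibroblast sum the collagen genes *Col3a1* and *Col1a1* held 2531 and 1969 CPM. The part of fiber type and of other cells in these deviations was not tested.

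**Figure D4:**
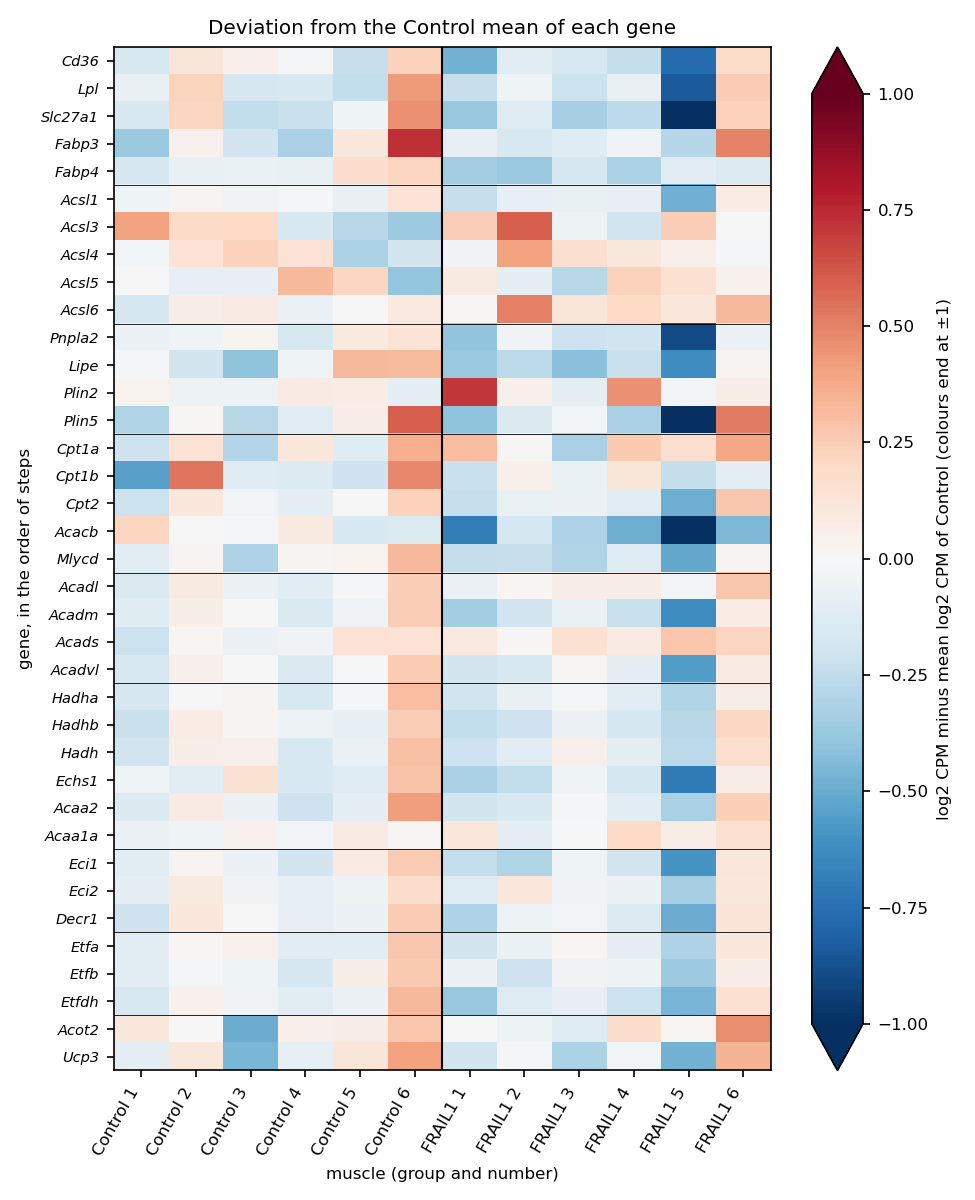
Log2 CPM of each of the 37 genes (rows, in the order of steps) minus its Control mean in each of the 12 muscles (columns), red for higher and blue for lower, with colours ending at ±1. Both muscles of number 6 are red for most genes (median deviation 0.26 and 0.12), and *FRAIL1* muscle 5 is blue for most (-0.33).

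Per kilobase of the longest coding transcript, the Control levels of the 37 genes covered a wide range. The highest was *Acadvl* at 224 ± 24.2 CPM per kb (SD, n = 6), followed by *Etfb* (203 ± 22.0), *Fabp3* (170 ± 54.3), *Fabp4* (163 ± 18.1), *Etfa* (153 ± 16.8), *Acadm* (151 ± 15.2) and *Acadl* (130 ± 13.7), and neighbours in this order differ by less than the sum of their SDs. Among the lowest were *Cpt1a* at 3.43 ± 0.601, *Acsl6* at 3.81 ± 0.268, *Acot2* at 4.29 ± 0.705 and *Acsl5* at 4.58 ± 0.786 CPM per kb. *Acsl1* stood at 85.5 ± 4.63 CPM per kb, far above the other 4 synthetases, which lay between 3.81 and 5.96 CPM per kb. Readings for *Cpt1b*, *Etfb*, *Fabp3*, *Hadhb*, *Acadvl*, *Acaa1a* and *Acot2* carry the counting limits given above.

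Of 71 other genes of fatty acid metabolism, 70 were tested, and *G0s2* was listed at 0. Among the 70, 3 were lower and 1 was higher at an adjusted p-value of 0.05 by edgeR without the block, beside the 1.85% and 4.43% of all genes. With the block 10 were lower and 3 higher, beside 6.62% and 7.48%. The median was -0.076. *Lpin1*, a phosphatidate phosphatase of triglyceride synthesis, ranged from 236 to 333 CPM in Control and from 135 to 242 CPM in *FRAIL1* muscles (log2 fold change -0.49, SE 0.120, adjusted p = 0.0301 by edgeR). *Rxra*, the receptor that pairs with lipid-sensing nuclear receptors, had 214 to 234 CPM in Control and 110 to 202 CPM in *FRAIL1* muscles, with no overlap (-0.43, SE 0.109, adjusted p = 0.0335 by edgeR). *Plin4*, a perilipin, had 116 to 138 CPM in Control and 46.9 to 106 CPM in *FRAIL1* muscles, with no overlap (-0.55, SE 0.152, adjusted p = 0.0496 by edgeR and 0.0564 with the block). *Acot9*, a mitochondrial thioesterase, ranged from 23.0 to 29.7 CPM in Control and from 27.8 to 39.1 CPM in *FRAIL1* muscles and was higher in 6 of 6 pairs (0.37, SE 0.0823, adjusted p = 0.0220 by edgeR).

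The calls of these 4 genes changed when single muscles were left out. With 1 muscle left out, edgeR's adjusted p-value was above 0.05 for *Lpin1* in 8 of 12 fits (up to 0.0679) and for *Rxra* and *Plin4* in 9 of 12 (up to 0.0710 and 0.0940), the exceptions being *FRAIL1* muscles 2, 3 and 5, and for *Lpin1* also Control muscle 6. For *Acot9* it was above 0.05 without Control muscle 2 (0.0531) and without *FRAIL1* muscle 1 (0.0550). Without *FRAIL1* muscle 5 it fell to 0.00736 for *Lpin1*, 0.00537 for *Rxra* and 0.00191 for *Plin4*. Over these fits the log2 fold change was between -0.55 and -0.40 for *Lpin1*, -0.50 and -0.34 for *Rxra*, -0.61 and -0.42 for *Plin4*, and 0.31 and 0.41 for *Acot9*.

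By group the other genes were unevenly placed. Of 14 of carnitine handling and mitochondrial oxidation, 12 had values below 0 (median -0.13), and of 12 peroxisomal genes 9 did (median -0.057). Of 11 genes of fatty acid synthesis and desaturation 5 did (median 0.011), and of 13 regulators and fuel switches 9 did (median -0.14). *Pdk4* and *Pdk2*, kinases that turn off pyruvate oxidation and favour fat, had -0.29 and -0.27, each lower in 6 of 6 pairs, with adjusted p-values of 0.539 and 0.126 by edgeR and of 0.0199 and 0.0469 with the block.

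Markers of fibers and of other cells differed alongside these genes. Of the 5 fiber markers 1 passed: *Ckm*, muscle creatine kinase, had a log2 fold change of -0.38 (adjusted p = 0.0482 by edgeR), and *Myh4*, the myosin of the fastest fibers, had -0.43 (adjusted p = 0.0548, and 0.0328 with the block), with no overlap between 22444 to 40293 CPM in *FRAIL1* and 40802 to 51023 CPM in Control muscles. The 5 fiber markers summed to 101413 to 123507 CPM in Control and 71904 to 106084 CPM in *FRAIL1* muscles, lower in 6 of 6 pairs. Of 8 slow and oxidative fiber markers 4 were higher (*Tnni1*, *Tnnt1*, *Tnnc1* and *Atp2a2*), but *Myh7* and *Myh2*, the slow and 2A myosins, did not pass (adjusted p = 0.696 and 0.862 by edgeR), and the list summed to 415 to 2400 CPM in Control and 633 to 1905 CPM in *FRAIL1* muscles.

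Macrophage markers summed to 216 to 339 CPM in Control and 273 to 747 CPM in *FRAIL1* muscles and were higher in 6 of 6 pairs. Of the 10, 0 passed without the block by edgeR (8 at an unadjusted p-value under 0.05) and 6 with it. Fibroblast markers summed to 1076 to 1912 CPM against 2014 to 5065 CPM, with no overlap and 0 of 9 past the threshold by edgeR (4 at an unadjusted p-value under 0.05). Most of that sum was *Col1a1* and *Col3a1*. *Col1a1* had 310 to 575 CPM in Control and 609 to 1969 CPM in *FRAIL1* muscles. For *Col3a1* these were 449 to 880 CPM and 977 to 2531 CPM. Of the 9 markers, 7 had values above 0, with *Dcn* at only 0.019, while *Ly6a* (-0.18) and *Pi16* (-0.14) were below 0. Schwann cell markers summed to 66.6 to 126 CPM against 49.5 to 87.1 CPM, with 0 of 7 past the threshold by edgeR (2 at an unadjusted p-value under 0.05) and 1 with the block (*Prx*, log2 fold change -0.52, adjusted p = 0.0313). No marker of these lists was at 0 in every muscle, and the part of each cell type in the fatty acid gene values was not tested.

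**Figure D5:**
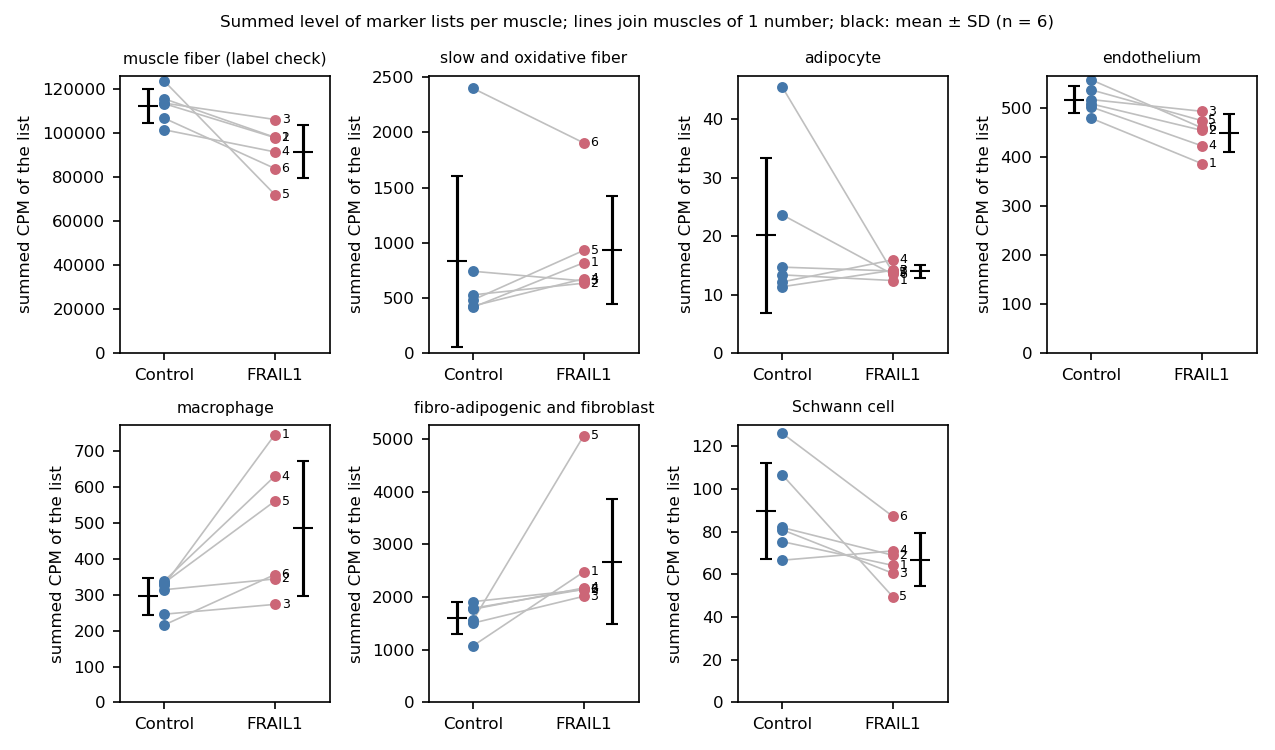
Summed level (CPM, y axis from 0) of 7 lists of cell type markers in each Control and *FRAIL1* muscle, with lines joining muscles of 1 number and the mean ± SD (n = 6) in black. Summed endothelial and fiber markers are lower and summed macrophage and fibroblast markers are higher in the *FRAIL1* muscle of all 6 pairs. The fibroblast sum is mostly *Col1a1* and *Col3a1*.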

How the data were processed

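Poly(A) RNA of 12 TA muscles (6 Control, 6 *FRAIL1*) was sequenced as paired reads. The authors deposited raw counts, whole numbers of uniquely mapped reads per gene with no normalization. According to their methods and processing notes, adaptors were trimmed with Trimmomatic, reads were mapped to mm10 with STAR 2.7.8a and counted with featureCounts 2.0.1. The strand setting and annotation release are not given in the sources used here. Genes were matched by NCBI Gene ID to RefSeq symbols of GRCm38.p6 (25275 of 27179). Unmatched genes held 0.280% of the counts and stayed in the library sizes.

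Genes were filtered with filterByExpr, scaled with TMM and tested with edgeR 4.0.16 in R 4.3.3 (glmQLFit, robust, and glmQLFTest), and p-values were corrected by Benjamini-Hochberg over all 15502 genes (threshold 0.05). The study's own comparison used DESeq2. Alternative fits had the mouse as a block, other scalings and filters, a fit that was not robust, DESeq2 1.42.0, limma 3.58.1 voom, each muscle left out, and both muscles of number 5 left out. The code was tested on simulated counts. Ratios were tested by exact permutation over the 12 muscles and within the 6 pairs, with adjustment by scipy 1.17.1; these tests were added after seeing the data. All members, lists, markers and motifs were chosen with earlier results of these data known. Every member was described, and of other genes those past the threshold in the fit without a block were to be named. *Pdk4*, *Pdk2* and the markers given with values were picked after their values were seen.

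Muscles of 1 number deviated together: the correlation of deviations from the group means was 0.254, 0.162, 0.282, 0.263, 0.0547 and 0.185 for numbers 1 to 6, with a mean of 0.200 against -0.0400 between different numbers. The pairing comes from the design, with both TAs taken from each mouse, and from the shared numbers. Within a group no libraries were copies (chi-square per degree of freedom at least 14.5). Copies of transcripts were searched with BLAST 2.17.0 (at least 98% identity over 100 bases, or 95% where stated), and overlaps and lengths come from GENCODE on GRCm38.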

Additional observations from a re-analysis of the deposited data

Results flagged for a closer look

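Of 74 groups of 6 muscles examined (the 37 genes in both groups), 4 had a muscle far from the other 5 by Dixon's test, and chance gives about 1 in 20 groups. All 4 are muscles of number 6. *Fabp3* was at 224 CPM in Control muscle 6 against 104 to 146 CPM in the other Control muscles, and at 190 CPM in *FRAIL1* muscle 6 against 110 to 131 CPM in the other *FRAIL1* muscles. *Plin5* was at 19.4 CPM in Control muscle 6 against 10.4 to 13.4 CPM. *Hadha* was at 525 CPM there against 380 to 433 CPM. *FRAIL1* muscle 5, which lay apart on the first principal component, was flagged for 0 of the 37 genes.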

How the results depend on the processing

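Without a block, 0 genes of the list were higher under every scaling, filter and tool tried, and 0 were lower under the other scalings, the other filters and the fit that was not robust. Lower genes numbered 2 with DESeq2, 2 with limma voom, 1 without both muscles of number 5, and 0 to 2 when 1 muscle was left out. With the replicate block, 5 were lower and 1 higher in edgeR, 9 and 0 in DESeq2, and 8 and 1 in edgeR without both muscles of number 5. The median log2 fold change stayed below 0 throughout, between -0.19 and -0.054 with 1 muscle left out and at -0.075 in voom.

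Signs turned for 3 genes near 0. *Fabp3* was at 0.045 in voom, at 0.038 with the replicate block without both muscles of number 5, and between -0.19 and 0.12 with 1 muscle left out. *Acsl5* lay between -0.054 and 0.086 and *Acot2* between -0.016 and 0.13 with 1 muscle left out. Of 888 fold changes of the 37 genes over 24 alternatives, 844 kept their sign and side of the threshold, 34 passed it anew and 10 turned sign. Permuted within pairs (replicate block), 0 of 21 ratios passed the threshold. No p-value under 0.0312 is possible there, so a pass after adjustment was hardly within reach and this count decides little. Over all splits, the ratios past the threshold numbered 3 to 6 with 1 muscle left out, 5 without both muscles of number 5, and 3 when ratios with genes of shared reads were left out. In the last case *Acadvl* ratios were not tested. Over all genes, 974 passed without and 2186 with the block, 2232 in DESeq2, 1836 in voom, and between 364 and 2110 with 1 muscle left out.

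*Plin4* also lost its call without a filter (adjusted p = 0.0719 by edgeR). Counting limits bear most on *Cpt1b*, *Etfb*, *Fabp3*, *Hadhb* and *Acadvl*. Similar or overlapping sequence was also given for *Acaa1a*, *Acot2* and *Lipe*, and the spread between 6 muscles limits every gene. Protein, lipid content and oxidation rates are not in these data.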
